A study of Danio rerio with 2 samples.

Results

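Ferritin, iron export and heme breakdown genes were described in liver of zebrafish exposed to arsenate, from a set of 7 genes: the ferritin heavy chain-like gene fthl28, the ferritin heavy chain gene fth1a, the iron exporter gene slc40a1, the heme oxygenase gene hmox1a, the transferrin gene tfa, the transferrin receptor gene tfr2 and the hepcidin gene hamp. The genes were chosen by symbol, with their levels in these libraries already known, and were looked up through the RefSeq accession of each transcript. Of the 7, 5 were found among 17963 genes and all 5 had at least 10 tags. The genes tfa and hamp were matched to no transcript and are not analysed here.

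The libraries came from wild-type zebrafish aged 3 months. The arsenate group was exposed to sodium arsenate for 96 h, at about 15 adults per 3 L tank with daily water changes, and the control group was wild-type siblings in water; their libraries are called the exposed and the control library. No source used here gives the sex of the fish or how many were pooled. Each group is 1 library of 3' SAGE, which counts a short tag near the 3' end of each transcript, so a transcript's length does not scale its value.

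Iron that enters a cell is used, stored inside the ferritin shell, or exported. In vertebrates transferrin carries iron in plasma, transferrin receptors take it up, ferroportin (slc40a1) releases it, and hepcidin, a hormone of the liver, causes ferroportin to be degraded. Heme oxygenase opens the heme ring and sets its iron free, and translation of ferritin is held back by iron regulatory proteins when iron is scarce. In mammals the genes of ferritin, ferroportin and heme oxygenase are also known targets of the oxidant-responsive factor NRF2 and of its heme-sensitive competitor BACH1.

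The depth was 4420935 tags for arsenate and 2592679 for water, so 1 tag was worth 0.226 RPM (tags scaled to a common total) in the exposed library and 0.386 RPM in the control library. Each interval beside a ratio is at 95% and reflects counting error alone. They hold nothing of the variation between fish, and no difference below has a replicate check. Since the genes were chosen with their ratios known, all their values are descriptions without a test. A gene with at least 10 tags over both libraries is called higher or lower where the ratio of RPM + 1 is at least 2 or at most 0.5. By that rule 15.6% of 7839 genes were higher in the exposed library and 14.4% were lower, and the median log2 ratio of all of them was 0.04. Of the 5 genes found, 3 were higher, 1 was lower and 1 was neither. The rule for choosing them used this contrast, so nothing is read from that count.

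Liver markers were present in both libraries: all 8 hepatocyte markers found had at least 10 tags. Their summed level was 59870 RPM in the exposed library and 145440 RPM in the control library. Of the 8, 0 were higher and 2 were lower (25.0%), against 15.6% and 14.4% of all genes. Their median log2 ratio was -0.83. With most tags over both libraries were fabp10a, at 23450 RPM in the exposed and 96575 RPM in the control library, and fgg, at 13615 and 7653 RPM. Markers of neighbouring organs differed between the libraries. The summed level of 16 exocrine pancreas markers was 3273 RPM in the exposed library and 38896 RPM in the control library. That of 6 testis markers was 1.58 RPM and 304 RPM. The testis markers ddx4, with 0 tags against 4, and piwil1, with 0 against 3, were under 10 tags. The single markers with most tags over both libraries were prss59.1 and cela1.6 for pancreas and insl3 and sycp1 for testis. The part of these organs in the differences below was not tested. In such bulk tissue, fewer cells of a type and less RNA per cell cannot be told apart.

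Both storage genes of the set, fthl28 and fth1a, stood higher in the exposed library. For fthl28, 11538 tags were listed in the exposed library and 14 in the control library, which is 2609.9 RPM and 5.40 RPM, a ratio of 483 (288 to 884). By the ratio of RPM + 1 it ranked 1 among the 7839 genes with at least 10 tags. By level within a library it was number 56 of the 12384 genes with a tag in the exposed library and number 4788 of 11836 in the control library. The gene fth1a, whose product is the iron-oxidising heavy subunit of ferritin, had 9134 tags against 917, or 2066 RPM against 354 RPM. Its ratio was 5.84 (5.46 to 6.26), and its place by level moved from number 300 in the control library to number 66 in the exposed library. Thus fthl28 was scarce in the control library and abundant in the exposed library, while fth1a was abundant in both.

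**Figure D1:**
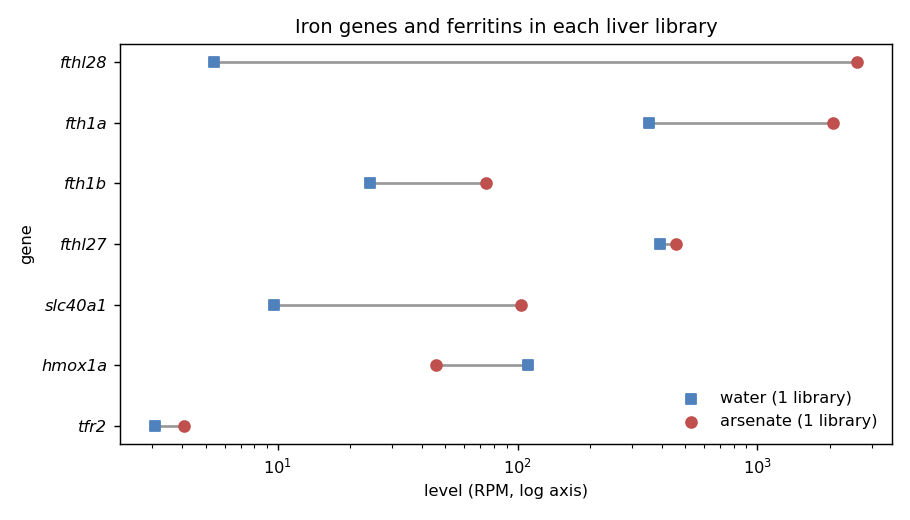
Level of 5 iron genes and of the further ferritin genes fth1b and fthl27 in the control library (squares) and the exposed library (circles), in RPM on a log axis, 1 library each. The line of fthl28 runs from 5.40 to 2609.9 RPM, that of fthl27 from 394 to 456 RPM, and hmox1a alone is lower in the exposed library.

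The other ferritin genes did not share the ratio of fthl28. The reference lists 7 genes with a ferritin heavy chain symbol, of which 5 were in the tables. Ferritin genes were taken by that symbol alone. Any ferritin under a clone-type or other name is outside the counts, sums and shares given here. The gene fth1b was at 73.5 RPM against 24.3 RPM, 3.03-fold higher in the exposed library (2.30 to 4.03), from 325 tags against 63. The gene fthl27 was at 456 RPM against 394 RPM, a ratio of 1.16 (1.07 to 1.25). The gene fthl29 had 0 tags in each library, where 3 tags, the limit used for a count of 0, correspond to 0.679 RPM for arsenate and 1.16 RPM for water. The genes fthl30 and fthl31 were matched to no transcript. Of the 4 ferritin genes with tags, 3 were higher and 1 was neither, against 15.6% of all genes higher. As fthl28 and fth1a were chosen with their ratios known, nothing is read from that count.

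Tags of ferritin copies may be shared or split between near-identical genes, so the value of each copy is uncertain. If each tag was counted for a single gene, their sum does not depend on how tags were divided among the 4 genes. No source used here states this, and tags shared with genes outside the 4 would also change the sum. Together the 4 genes had 23012 tags in the exposed library and 2015 in the control library. That was 5205 RPM against 777 RPM, a ratio of 6.70 (6.40 to 7.01). That is 0.521% of all tags in the exposed library and 0.0777% in the control library. Without fthl28 the ferritin genes summed to 2595 RPM against 772 RPM, a ratio of 3.36 (3.21 to 3.53). The neighbours fthl27 and fthl28 together were at 3066 RPM against 399 RPM, a ratio of 7.68 (7.21 to 8.19).

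The makeup of the ferritin tags also differed. In the control library fthl27 held 50.7% of them (exact 95% interval 48.5 to 52.9), fth1a 45.5% (43.3 to 47.7), fth1b 3.13% (2.41 to 3.98) and fthl28 0.695% (0.380 to 1.16). In the exposed library fthl28 held 50.1% (49.5 to 50.8), fth1a 39.7% (39.1 to 40.3), fthl27 8.76% (8.39 to 9.13) and fth1b 1.41% (1.26 to 1.57). There were 5.73 tags of fthl28 for each tag of fthl27 in the exposed library and 0.0137 in the control library. These shares are set within a library, so no scaling between the libraries enters them.

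**Figure D2:**
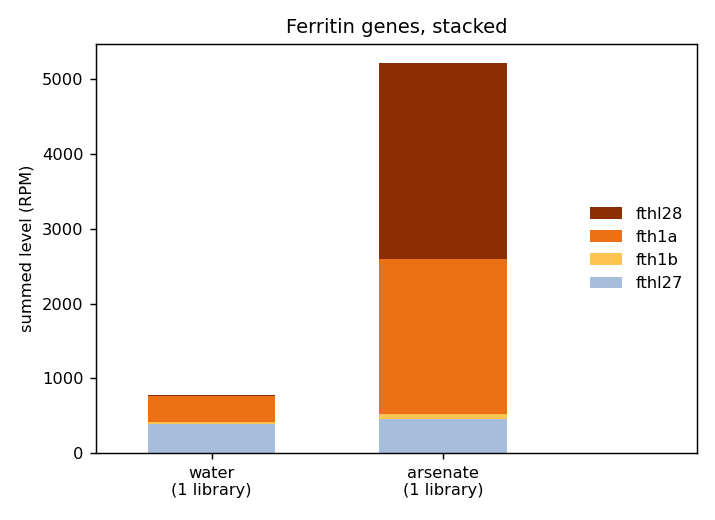
Summed level of the ferritin genes in each library, in RPM, with 1 library per bar. The arsenate bar reaches 5205 RPM, mostly fthl28 and fth1a, and the water bar 777 RPM, mostly fthl27 and fth1a.

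In the RefSeq gene order of assembly GRCz12tu, used here for order only, fthl27, fthl28, fthl30, fthl31 and fthl29 lie next to each other. The genes on the near side of this cluster differed less: aldh16a1 was at 21.9 RPM against 28.5 RPM, and baxb, a gene of the BAX family of apoptosis regulators, at 24.0 RPM against 11.2 RPM, a ratio of 2.14 (1.41 to 3.35). On the other side, zgc:173594, placed 6 genes after fthl28 and singled out after its values were seen, had 5154 tags against 13, or 1166 RPM against 5.01 RPM. Its ratio of 233 (136 to 437) gave it rank 2 among the 7839 genes by the ratio of RPM + 1, directly after fthl28. The files and the reference give no description of zgc:173594. The next genes with tags, syt5a and pih1d1, were at 2.26 RPM against 4.24 RPM and at 7.24 RPM against 14.3 RPM. The genes ranked 1 and 2 by the ratio of RPM + 1 thus lay in the same small neighbourhood, with fthl27 beside them within 2-fold and fthl29 between them at 0 tags. Both ranks depend on the added 1 RPM. By RPM alone a transcript without a symbol, of unknown position, had a ratio of 247 (44.1 to 9775) from 421 tags against 1. Another transcript without a symbol had 163 tags against 0, so its ratio by RPM alone has no finite value to rank against fthl28. Whether genes of this neighbourhood share tags was not tested.

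**Figure D3:**
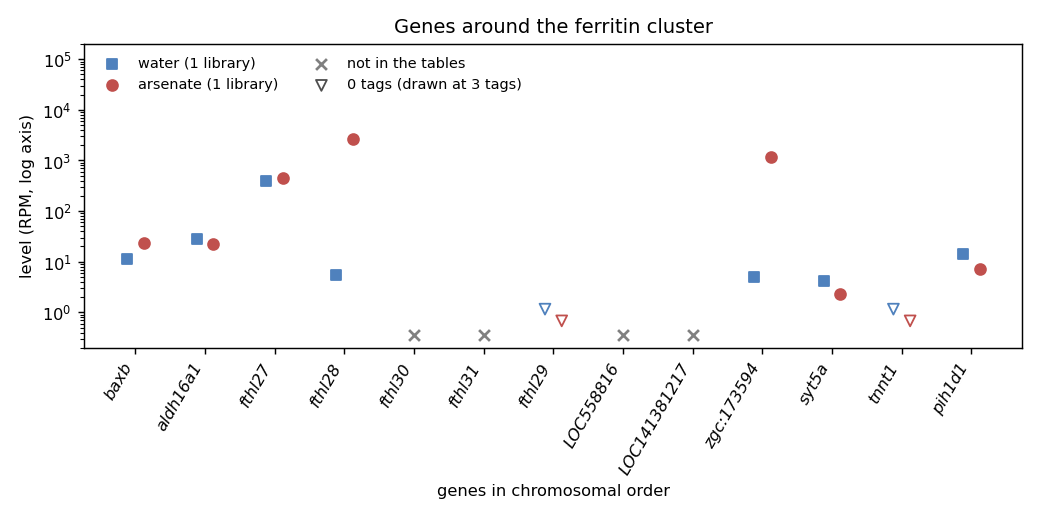
Level of genes around the ferritin cluster in their chromosomal order, in RPM on a log axis, with squares for the control library, circles for the exposed library, open triangles for 0 tags drawn at the level of 3 tags, and crosses for genes not in the tables. Of the genes shown, fthl28 and zgc:173594 are separated between libraries by more than 100-fold, and the others with tags in both libraries by less than 2.5-fold.

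The iron exporter gene was also higher in the exposed library. The ferroportin gene slc40a1, the known route by which vertebrate cells release iron, had 457 tags in the exposed library and 25 in the control library, or 103 RPM against 9.64 RPM. Its ratio was 10.7 (7.17 to 16.7), the rank 62 among the 7839 genes, and its place by level was number 738 in the exposed library and number 3661 in the control library. The plasma ferroxidase gene cp (ceruloplasmin), which oxidises released iron, was at 1199 RPM against 913 RPM, a ratio of 1.31 (1.25 to 1.38). Of 9 measured genes of iron export and hepcidin control, 2 were higher (22.2%), 1 was lower (11.1%) and 6 were neither. The shares over all genes were 15.6% and 14.4%, and the median log2 ratio of the 9 was 0.27. The other gene higher was id1, a target of BMP signalling, at 17.4 RPM against 4.24 RPM, and the gene lower was smad6b, an inhibitor of BMP signalling, from 5 tags against 14, which was within 2-fold with a pseudocount of 5. In the same list bmp6 had 12 tags against 15, a ratio of 0.469 (0.201 to 1.07). It was within the rule on RPM + 1, but called lower with a pseudocount of 0.1. BMP signalling drives hepcidin in mammals. Whether BMP signalling differed was not tested, and hepcidin itself was not analysed here.

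Macrophages of liver and spleen are rich in ferroportin and heme oxygenase in mammals, and more macrophage markers were lower than higher. Of 8 measured macrophage markers 1 was higher and 4 were lower, against 15.6% and 14.4% of all genes. The summed level over 12 markers was 396 RPM in the exposed library and 548 RPM in the control library. With most tags were lgmn, 310.1 RPM in the exposed and 184 RPM in the control library, and cd74b, 45.2 and 273 RPM. The marker called higher was mpeg1.2, with 34 tags against 4, a ratio of 4.98. Called lower beside cd74b were cd74a, with 19 tags against 81, c1qc, with 50 against 81, and c1qb, with 22 against 29. Under 10 tags were mpeg1.1, with 4 against 5, and csf1ra, with 2 against 1, and havcr1 was at 0 in each. Enterocytes also export iron through ferroportin. Of 6 measured intestine markers 1 was higher (16.7%) and 4 were lower (66.7%), against 15.6% and 14.4% of all genes. The summed level over 7 markers was 192 RPM against 336 RPM, with mep1a.1 under 10 tags, at 0 against 1. With most tags were apoa4b.2, at 142 RPM against 245 RPM, and cdh17, called higher at 36.9 RPM against 16.6 RPM. The ratio of apoa4b.2 was 0.580 (0.519 to 0.649), within the rule, from 628 tags against 635. The part of macrophages and enterocytes in the level of slc40a1 was not tested.

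Few iron uptake genes could be measured, and those were within 2-fold. The liver iron sensor and transferrin receptor gene tfr2 had 18 tags against 8, or 4.07 RPM against 3.09 RPM, and its ratio of 1.32 had an interval (0.546 to 3.51) that held both a 2-fold difference and none. At this depth its direction was not detectable. The transferrin receptor gene tfr1a had 0 tags against 1 and tfr1b 0 in each, all under the limit of 3 tags. The divalent metal transporter gene slc11a2, which moves iron across membranes, was at 331 RPM against 300.1 RPM, a ratio of 1.1 (1.01 to 1.21). The metalloreductase family gene steap4 was at 24.0 RPM against 27.8 RPM, and its ratio of 0.863 went above 1 when libraries were scaled without their 10 most abundant genes. Of the 3 uptake genes measured, 0 were higher and 0 were lower, against 15.6% and 14.4% of all genes, a count too small to set apart from that background. The 6 uptake genes in the tables summed to 359 RPM against 332 RPM, a ratio of 1.08 (0.994 to 1.18). The sum is carried by slc11a2, and without it the ratio was 0.873 (0.657 to 1.16). Of 16 uptake genes listed, 10 were matched to no transcript, transferrin among them. A total of 1093 transcripts with a RefSeq accession had no symbol, and a further 7435 had no such accession and could not be looked up. A single abundant gene among the unmatched, transferrin for example, could change this sum and its ratio. The sum and ratio thus describe the 6 genes found, not iron uptake genes as a whole.

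Set against slc11a2 within a library, ferritin and ferroportin need no scaling by library totals, but slc11a2 then serves as the reference. These values rest on the same tags as the ratios above, so they are no separate check. There were 15.7 ferritin tags for each slc11a2 tag in the exposed library and 2.59 in the control library. For slc40a1 it was 0.312 and 0.0321 tags per slc11a2 tag. With few tags behind tfr2, the 25.4 and 3.13 tags of slc40a1 per tfr2 tag are less certain.

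**Figure D4:**
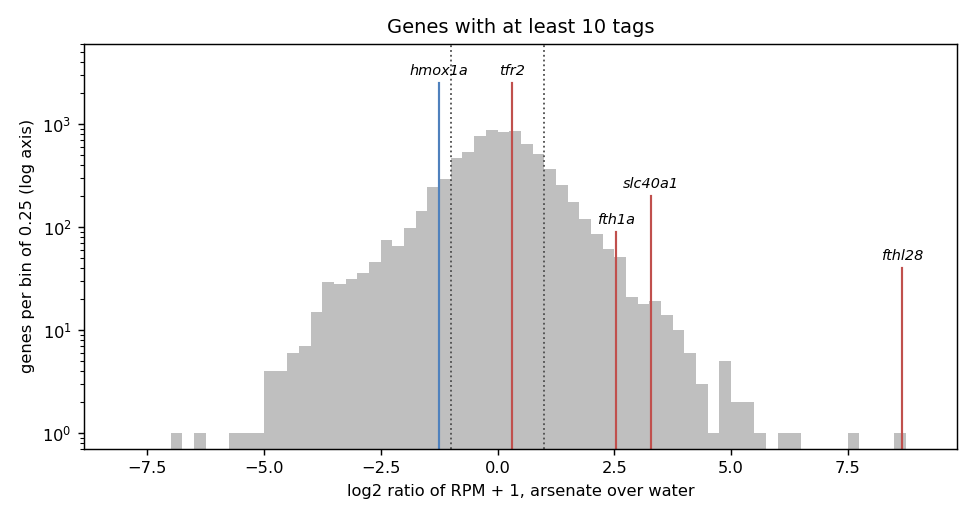
Histogram of the log2 ratio of RPM + 1, arsenate over water, for 7839 genes with at least 10 tags, with gene counts on a log axis and dotted lines at 2-fold. Vertical lines mark 5 iron genes: fthl28 at 8.67 lies at the right end, slc40a1 at 3.29 and fth1a at 2.54 in the upper tail, tfr2 at 0.31 near the middle, and hmox1a at -1.25 on the lower side.

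Among heme breakdown genes, hmox1a was lower in the exposed library. The inducible heme oxygenase gene hmox1a had 203 tags against 286, or 45.9 RPM against 110.3 RPM, 2.40-fold lower in the exposed library (2.0 to 2.89). It was number 697 by level in the control library and number 1401 in the exposed library. Its copy hmox1b had 12 tags against 14, at 2.71 RPM against 5.40 RPM, a ratio of 0.503 (0.212 to 1.17). The constitutive heme oxygenase gene hmox2a was at 34.8 RPM against 23.5 RPM, a ratio of 1.48 (1.09 to 2.03). In tags per hmox2a tag, hmox1a stood at 1.32 in the exposed library and 4.69 in the control library. Among genes that act after or beside heme oxygenase, the biliverdin reductase gene blvrb had a ratio of 0.498 (0.290 to 0.849), and pora, the reductase that feeds electrons to heme oxygenase, a ratio of 0.653 (0.485 to 0.881). Of 7 measured genes of heme breakdown and heme transport, 0 were higher, 1 was lower and 6 were neither. The share lower was 14.3%, against 14.4% of all genes. Among the 6, blvrb was past 2-fold by RPM alone but within it by RPM + 1. It was called lower by an exact binomial test on the tags. The median log2 ratio of the 7 was -0.59, against 0.04 for all genes.

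Red cells hold most of the heme of the body, and their markers were also on the lower side. Of 10 measured erythrocyte markers 0 were higher and 6 were lower, against 15.6% and 14.4% of all genes. Their median log2 ratio was -1.03, against 0.04 for all genes. The summed level over 12 markers was 419.8 RPM in the exposed library and 561 RPM in the control library. The marker tfr1a was under 10 tags, at 0 against 1. The globin gene with most tags, hbba1, was at 195 RPM against 201 RPM and ba1l, the next, at 108 RPM against 117 RPM. Their part in the level of hmox1a was not tested.

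The copies of the first enzyme of heme synthesis differed in direction. The gene alas1, the rate-limiting enzyme of heme synthesis in liver, had 4723 tags against 400, or 1068 RPM against 154 RPM, a ratio of 6.92 (6.25 to 7.69). The erythroid copy alas2 had 10.6 RPM in the exposed and 23.1 RPM in the control library and was 2.18-fold lower (1.46 to 3.26). It was within 2-fold when libraries were scaled without their 10 most abundant genes or when the deeper library was thinned. The mitochondrial glycine carrier gene slc25a38a, required for heme synthesis in red cells, had 1 tag against 39, a 66.5-fold lower level (11.3 to 2693). The gene ppox, the enzyme before the last step, had 5 tags against 12, 4.09-fold lower (1.34 to 14.8), and was within 2-fold with a pseudocount of 5. The gene cpox, an enzyme of the later steps, had 30 tags against 8, a ratio of 2.20 (0.985 to 5.55). It was within the 2-fold rule, but past it with a pseudocount of 0.1 or when libraries were scaled without their 10 most abundant genes. Of 11 measured genes 1 was higher (9.09%), 3 were lower (27.3%) and 7 were neither, against 15.6% and 14.4% of all genes. Their median log2 ratio was -0.14. There were 23.3 alas1 tags for each hmox1a tag in the exposed library and 1.40 in the control library.

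Of 4 measured genes of ferritin turnover and iron sensing, 0 were higher and 0 were lower, against 15.6% and 14.4% of all genes. That count is too small to set apart from the background. The gene ncoa4, the receptor that delivers ferritin to the lysosome, was at 88.9 RPM against 175 RPM, a ratio of 0.508 (0.442 to 0.582) just inside the rule. It was called lower with TMM scaling (-1.02 on the log2 scale), with median-of-ratios scaling (-1.01) and with totals that leave out pancreas, testis and intestine markers (-1.02). The gene pcbp2, of the family of iron chaperones that load ferritin in mammals, was at 185 RPM against 109 RPM, a ratio of 1.70 (1.48 to 1.95). The cytosolic aconitase and iron regulatory protein gene aco1 had 11 tags against 4. There were 23.2 fth1a tags for each ncoa4 tag in the exposed library and 2.02 in the control library.

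Of 11 measured genes of mitochondrial iron and iron-sulfur cluster assembly, 2 were higher (18.2%), 0 were lower and 9 were neither. The shares over all genes were 15.6% and 14.4%, and the median log2 ratio of the 11 was -0.08. The scaffold gene iscua was at 137 RPM against 39.7 RPM, a ratio of 3.46 (2.80 to 4.30), whereas its copy iscub was at 49.8 RPM against 67.1 RPM, a ratio of 0.741 (0.605 to 0.910). Tags of this pair may be shared. The mitochondrial iron importer gene slc25a37 (mitoferrin) had 12 tags against 0, at least 2.35-fold higher against the limit of 3 tags in the control library. With the deeper library thinned it no longer had 10 tags, and with a pseudocount of 5 it was within 2-fold. The glutaredoxin gene glrx5 was at 72.4 RPM against 71.4 RPM.

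Iron and heme genes beyond the 5 were counted by the same rule. Of 44 other measured genes from all the iron lists, 5 were higher (11.4%) and 4 were lower (9.09%), against 15.6% and 14.4% of all genes. Their median log2 ratio was -0.13. Of the 85 other genes listed, 34 were matched to no transcript. The lists were chosen with earlier results of these data known, so nothing is read from these counts.

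**Figure D5:**
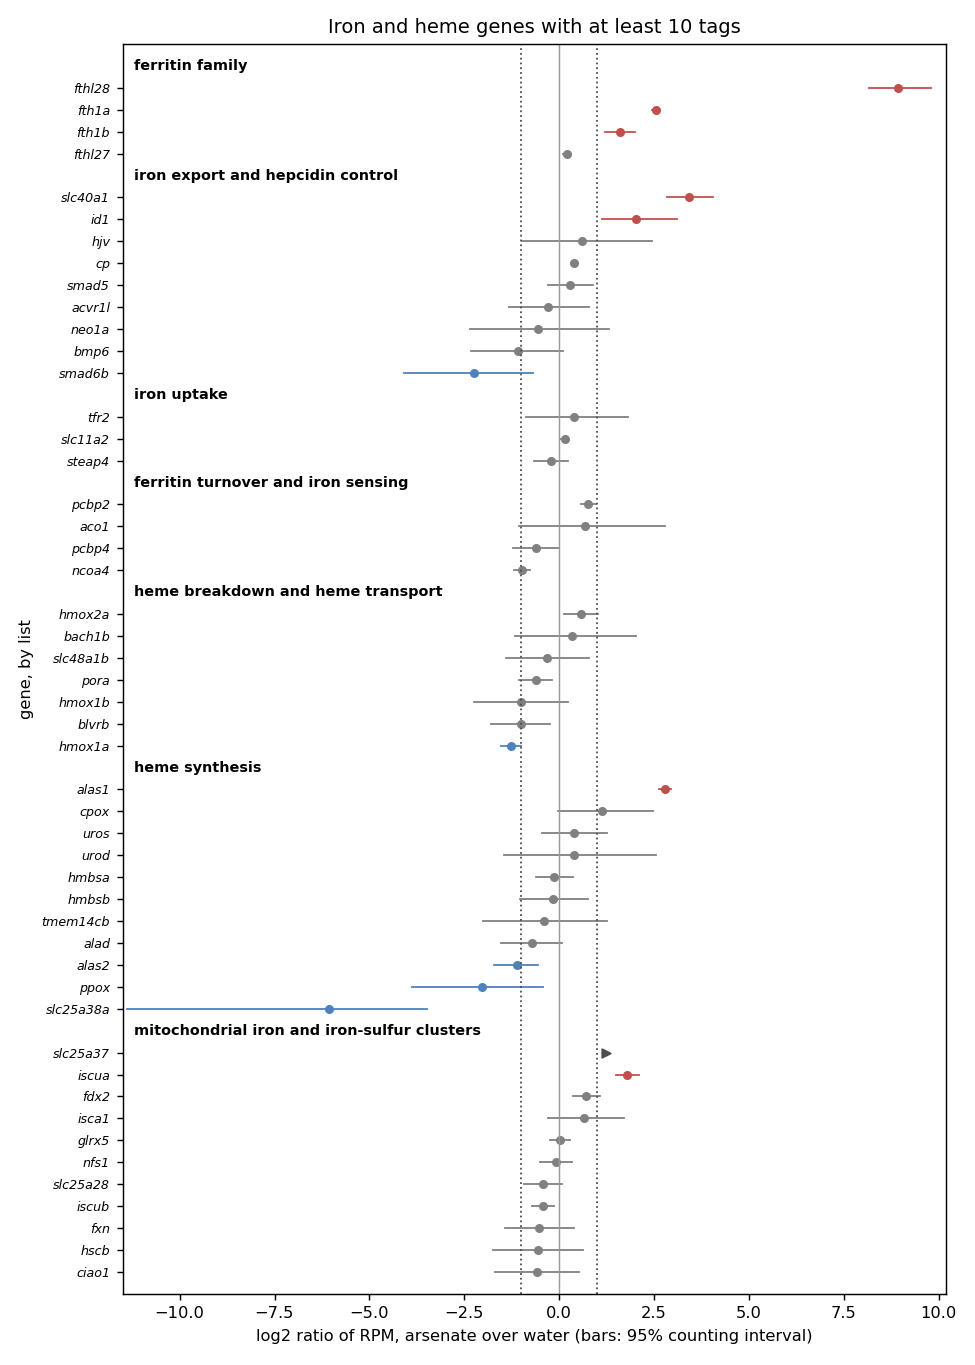
Log2 ratio of RPM, arsenate over water, of iron and heme genes with at least 10 tags, grouped by list, with bars for the 95% counting interval and dotted lines at 2-fold. Red marks genes called higher, blue genes called lower and grey the others, and the arrow marks slc25a37, listed at 0 in the control library, at its lower bound. Of the ferritin genes, fthl28, fth1a and fth1b lie to the right of the upper 2-fold line and fthl27 lies close to 0. Also to the right of that line are slc40a1, alas1, id1, iscua, cpox and slc25a37. Most others lie between the dotted lines.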

How the data were processed

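Liver RNA was profiled in 1 library of exposed fish and 1 of controls. A company made the libraries for SOLiD sequencing of 3' SAGE tags, as the protocols and design text in the labels state. For each library the authors deposited a table of 17991 transcripts with values headed TPM. The values were read as RPM, deposited by the authors without length scaling, since dividing by the value of 1 tag gives whole numbers, within 0.01, for 100% of them. No source used here names the mapping tool, the reference release, a filter or any pooling. Blanks were taken as 0 tags.

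RefSeq accessions were matched to symbols of assembly GRCz12tu (9463 of 10556 matched), and rows sharing a symbol were summed. Another 7435 rows had no RefSeq accession. Each row without a symbol was kept as a gene of its own, so 5886 of the 7839 genes with at least 10 tags have a symbol. The 95% interval of a ratio was derived from the exact (Clopper-Pearson) interval of the share of a gene's tags in the exposed library. PCR copies are not independent molecules, so intervals cover counting error only. The design's size rule was used: a minimum of 10 tags and RPM + 1 at least 2-fold apart, which understates the change of low genes. Members and lists were chosen with earlier results of these data known. The text names every member and every gene with a ferritin heavy chain symbol. For each other iron list it names the gene with most tags and up to 3 genes past the rule in each direction. For each marker list it names the 2 genes with most tags. The others named were chosen after their values were seen. Alternatives used edgeR 4.0.16 and DESeq2 1.42.0 on the recovered tags in R 4.3.3. Other steps used Python 3.11.15, scipy 1.17.1, numpy 2.4.6, matplotlib 3.10.9 and pandas 2.3.3. The recovery of tags, the size rule and the interval of a ratio were first tested on simulated data, and the other steps were not.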

Additional observations from a re-analysis of the deposited data

How the results depend on the processing

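In 14 alternatives (scaling, pseudocount, tag minimum, fold, thinning, summing of rows, an exact binomial test, edgeR with an assumed spread), fthl28, slc40a1 and alas1 kept their call in all. The calls of fth1a, fth1b, hmox1a, id1, iscua, smad6b, ppox, alas2 and slc25a37 were lost when edgeR's exact test assumed a coefficient of variation of 0.4, and all of these but fth1a also at 4-fold. Over all genes 1222 were higher and 1125 lower, and over the iron lists 8 and 5. These counts stayed within 1.5 times in 39 of 56 comparisons. With a pseudocount of 5 they were 580 and 610, with 2 iron genes lower. With at least 50 tags they were 713 and 565, again with 2 iron genes lower. At 1.5-fold they were 2176 and 1913, with 11 iron genes lower, and at 4-fold 303 and 351, with 4 and 1 iron genes. With the assumed coefficient of variation of 0.4 they were 102 and 186, with 3 and 1 iron genes. These rules are stricter or looser by construction. The exact binomial test, a comparison of the libraries rather than of the conditions, called 1084 genes higher and 1065 lower. Leaving the top 10 genes of either library out of the totals gave 1680 higher and 975 lower and raised the log2 median over all genes by 0.20; other scalings moved it by at most 0.05. Scaling without pancreas, testis and intestine markers was added after the data were seen and gave 1164 and 1179. No paired analysis was possible because each group has 1 library. Depth limits tfr2, with 26 tags in all, and the transferrin receptors tfr1a and tfr1b.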

Other observations

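Genes next to the other iron genes were mostly within 2-fold, where 15.6% of all genes were higher and 14.4% lower. With 5 genes taken on each side in the RefSeq order, slc40a1 had 4 measured neighbours, of which 0 were higher and 0 were lower. The gene fth1a had 3, of which 1 was lower, namely saxo2 with 0 tags against 36. Its neighbours saa, the acute phase serum amyloid A gene, and rplp2b, a ribosomal protein gene, were close to level, saa at 247 RPM in the exposed and 260.3 RPM in the control library, and rplp2b at 2075 and 2336 RPM. The gene hmox1a had 3 measured neighbours, of which the glycine and threonine metabolism gene gcat was lower, at 32.3 RPM against 131 RPM, a ratio of 0.247 (0.202 to 0.302), on the same side as hmox1a. The gene tfr2 had 1 measured neighbour, ctc1, with 9 tags against 2, a ratio of 2.64 (0.546 to 25.1) that was within the rule on RPM + 1.

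With 2 libraries, likeness of pattern is likeness of a single ratio. Among genes with a descriptive symbol and at least 100 tags, those nearest to fthl28 in the log2 ratio of RPM + 1 were smyd1a, lect2.3 and gsta.2, at distances of 2.39, 3.14 and 3.72 on the log2 scale. The gene smyd1a had 603 tags against 2, lect2.3 5245 against 64 and gsta.2 185 against 1. The clone-named zgc:173594 was nearer than these, at a distance of 1.07.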
